A study of Mus musculus with 12 samples.

Results

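The genes described here encode 7 components of 1 signaling route, from the lipid kinase PI3K (Pik3ca, Pik3cb and Pik3r1) through the kinase Akt (Akt1 and Akt2) to glycogen synthase kinase 3 (Gsk3a and Gsk3b). They were chosen by name, as the genes of the route that the study placed between Sprouty2 and the cytokine IL-33, and the choice was made with earlier results of these data known. All 7 were present among the 35241 gene symbols of the table, with 44 of its 113193 transcripts, and all 7 passed the filter on low values. RNA of full-thickness distal colon was sequenced from 12 mice, each mouse separately. Both groups were homozygous for the floxed allele Spry2-f/f. The 6 Spry2IEKO mice also carried Vil1::Cre, whose villin promoter limits the recombination to intestinal epithelium, and the 6 Spry2FF mice were their littermates without Cre. Each of 2 litters, A and B, gave 3 mice of each genotype and held 2 males and 4 females. Of the Spry2FF mice 3 were male, and of the Spry2IEKO mice 1. The labels give an age of 6 weeks in one place and 8 weeks in another, and no further strain background. Muscle, stroma and immune cells of the wall were sequenced together with the epithelium, so the deletion reached only a part of the RNA measured. Fewer cells of a type and less RNA per cell cannot be told apart in such tissue.

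Class I PI3K is a dimer of a catalytic and a regulatory subunit. Pik3ca encodes the catalytic subunit p110 alpha and Pik3cb encodes p110 beta, while Pik3r1 encodes the regulatory subunit p85 alpha, which stabilizes p110, holds it inactive and brings it to tyrosine-phosphorylated receptors. The lipid that PI3K makes recruits Akt to the membrane, where PDK1 and mTORC2 phosphorylate it, and active Akt phosphorylates GSK3 near its N terminus and thereby inhibits it. In the intestine, GSK3 is also part of the complex that marks beta-catenin for degradation. The study asked whether Sprouty2 acts on this route. By western blot of colon, it reported more phosphorylation of Akt at serine 473 and of GSK3 beta at serine 9 in Spry2IEKO mice. In cultured intestinal epithelial cells, an inhibitor of GSK3 beta was reported to raise IL-33 RNA and an inhibitor of PI3K to lower it. RNA levels of the kinases do not report their phosphorylation, which was not measured in these data.

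The coding sequence around the regulatory serines is shown because these codons are where the route acts on its members. The serine codon is in capitals, with up to 5 codons on either side, 5′ to 3′ on the coding strand, read from the GENCODE M21 transcripts (GRCm38).
Gsk3b-201, serine 9: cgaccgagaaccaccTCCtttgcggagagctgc
Gsk3a-201, serine 21: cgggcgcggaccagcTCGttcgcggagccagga
Akt1-201, serine 473: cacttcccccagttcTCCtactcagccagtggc
Akt2-201, serine 474: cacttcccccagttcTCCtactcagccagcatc
The serine codons lie in exon 1 of Gsk3b-201 (chromosome 16, 38090550 to 38090552, plus strand) and exon 1 of Gsk3a-201 (chromosome 7, 25237598 to 25237600, minus strand), both of which have 11 exons. The Akt serines lie in exon 14, the last, of Akt1-201 (chromosome 12, 112654722 to 112654724, minus strand) and of Akt2-201 (chromosome 7, 27638115 to 27638117, plus strand). These transcripts were the highest of their genes in this tissue.

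The deposited values are TPM, abundances corrected for transcript length and library size, rescaled a further time between mice, and their sum over the transcripts of a gene is called normalized TPM here. Totals ran from 918816 to 1069158 in the 12 mice. They are not read counts and do not show how deeply each library was sequenced. As a check of the labels, Spry2 was 27.7 ± 3.29 (SD, n = 6) in Spry2FF mice against 20.04 ± 1.59 (SD, n = 6) in Spry2IEKO mice. The groups did not overlap, as for 0.403% of all genes, and the log2 difference was -0.45 (unadjusted p = 0.000174 and adjusted p = 0.16 by limma). Markers of epithelium and smooth muscle were present in every mouse. The summed epithelial markers ran from 6687 to 8833 in Spry2IEKO mice and from 8799 to 11470 in Spry2FF mice, a log2 difference of -0.28 (exact permutation test, two-sided p = 0.00649), with 9 of the 10 genes lower in Spry2IEKO mice and none past an adjusted p of 0.05 by limma. Summed fibroblast markers ran from 258 to 433 in litter B and from 455 to 749 in litter A, with 6 of 6 genes lower in litter B and 4 of them past the threshold.

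Akt1 had the highest level of the 7 genes and Pik3cb by far the lowest. Over the 12 mice, Akt1 (ENSMUSG00000001729, chromosome 12, 112653821 to 112674884) was at 93.5 ± 11.9 normalized TPM (SD, n = 12) and Gsk3a (ENSMUSG00000057177, chromosome 7, 25228258 to 25237851) at 58.3 ± 3.96 (SD, n = 12). Below them stood 4 genes close together. Pik3ca (ENSMUSG00000027665, chromosome 3, 32397671 to 32468486) was at 37.8 ± 5.49 (SD, n = 12) and Pik3r1 (ENSMUSG00000041417, chromosome 13, 101680563 to 101768217) at 33.4 ± 5.09 (SD, n = 12). Akt2 (ENSMUSG00000004056, chromosome 7, 27591552 to 27640826) was at 29.0 ± 5.36 (SD, n = 12) and Gsk3b (ENSMUSG00000022812, chromosome 16, 38089001 to 38246084) at 25.0 ± 5.26 (SD, n = 12). Pik3cb (ENSMUSG00000032462, chromosome 9, 99036654 to 99140621) was at 5.10 ± 0.996 (SD, n = 12). TPM is scaled by transcript length, so these levels can be set side by side. Akt1 was above Gsk3a, Gsk3a above Pik3ca and Gsk3b above Pik3cb in 12 of 12 mice, with ranges that did not meet. Among the 4 genes in the middle the order did not hold in each mouse. Pik3ca was above Pik3r1 in 9 of 12 mice, Pik3r1 above Akt2 in 10 and Akt2 above Gsk3b in 10, and the ranges of these neighbours overlapped. Gsk3a varied least between mice, with a coefficient of variation of 6.79%, and Gsk3b varied most, at 21.003%.

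**Figure D1:**
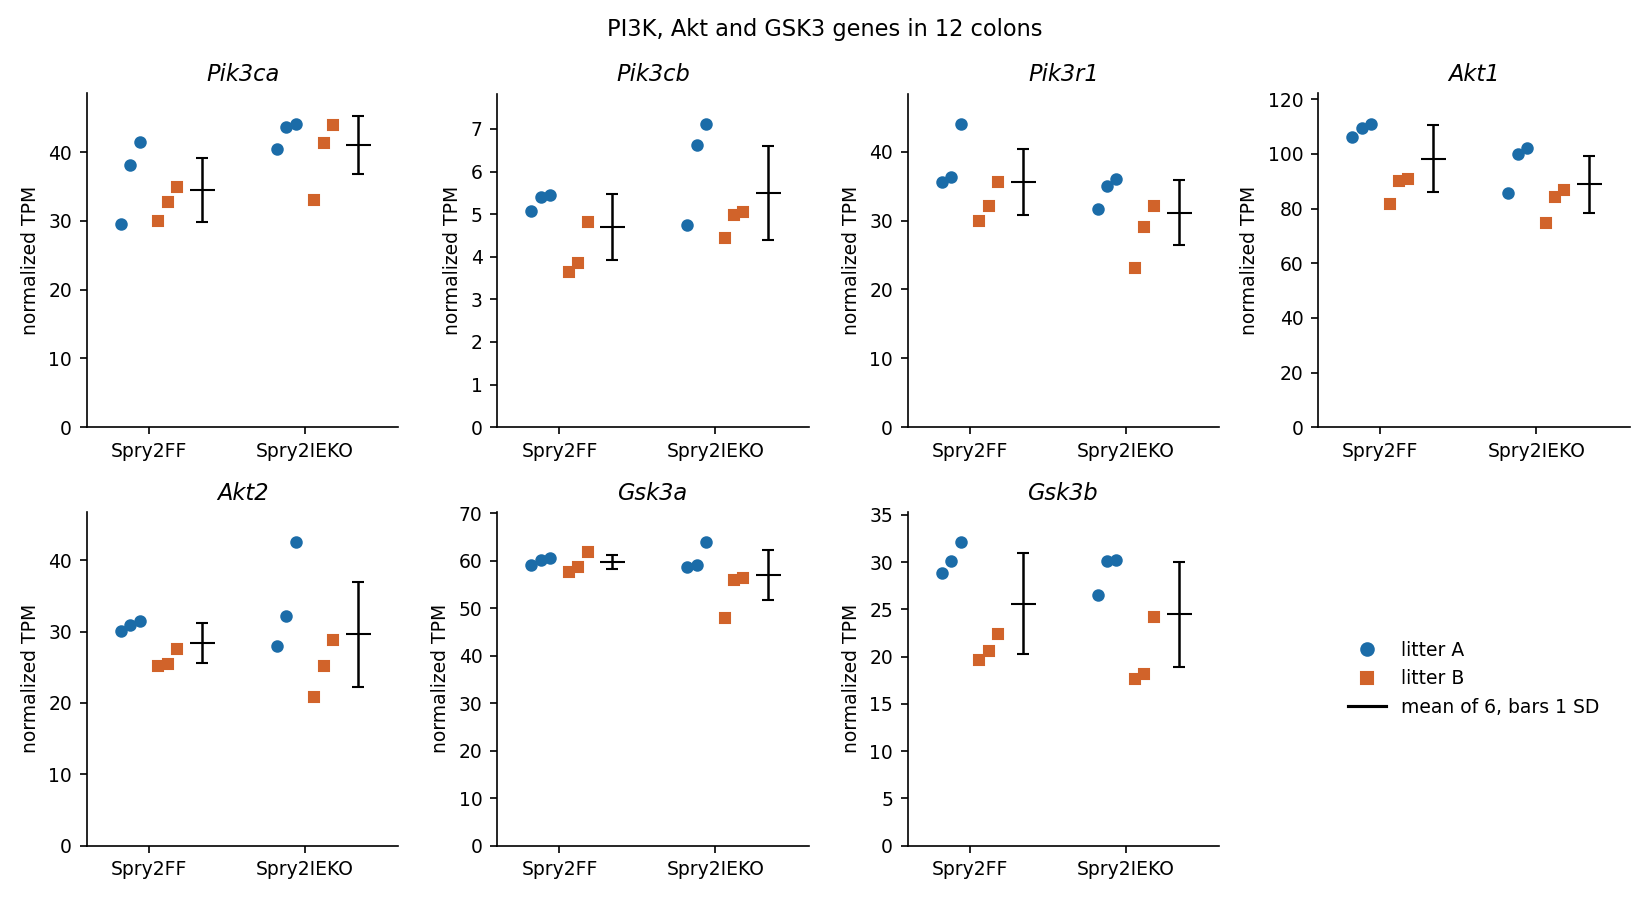
Normalized TPM of the 7 genes (vertical axes, each from 0) in the 12 mice, by genotype (horizontal axis) and litter (circles for A, squares for B), with the mean and 1 SD of each genotype at its right. The litter B squares of Gsk3b all lie below the litter A circles, whereas the genotypes overlap for every gene.

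The sums rested on transcripts of different kinds. Of the 44 transcripts, 28 are annotated as protein coding, 11 as retaining an intron, 4 as processed and 1 as a target of nonsense-mediated decay, and 29 had a mean of at least 0.5. Pik3r1 was nearly all coding, at 98.0% of its mean, and most of it was Pik3r1-202, which encodes the full p85 alpha with 724 codons. The shorter Pik3r1-201 with 454 codons, the form known as p55 alpha, held 2.49%. For Pik3cb the coding share was 24.9%. Its coding transcript Pik3cb-201 was at 1.27 ± 0.375 (SD, n = 12), while the decay target Pik3cb-203, whose reading frame is 530 codons against 1064, was at 3.83 ± 0.836 (SD, n = 12). In Pik3ca the coding share was 57.9%, led by Pik3ca-203 at 16.9 ± 5.24 (SD, n = 12). The 440-base Pik3ca-204, which retains an intron, was nearly as high at 15.9 ± 4.46 (SD, n = 12). Both Akt genes were mainly coding, 81.1% in Akt1 and 94.6% in Akt2, with Akt1-201 at 63.5% and Akt2-201 at 67.5% of their gene.

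Gsk3a came from a pair of transcripts, the coding Gsk3a-201 at 47.5 ± 3.53 (SD, n = 12) and the intron-retaining Gsk3a-203 at 10.8 ± 1.31 (SD, n = 12). The antisense gene 9130221H12Rik overlaps 1577 bases of Gsk3a on the other strand, and whether the strand entered the pseudoalignment is not given in the sources used here. Gsk3b was led by Gsk3b-201 with its 420 codons, at 18.1 ± 1.54 (SD, n = 12). Gsk3b-202 was at 3.34 ± 2.34 (SD, n = 12) and was listed at 0 in 1 mouse. It differs from Gsk3b-201 in the coding region by 39 bases after codon 303, which form an exon of their own, exon 9 of its 12 (chromosome 16, 38217113 to 38217151, plus strand). The insert is shown in capitals with 12 bases of the neighbouring exons on either side, because it separates the proteins that the 2 transcripts encode.
Gsk3b-202, insert: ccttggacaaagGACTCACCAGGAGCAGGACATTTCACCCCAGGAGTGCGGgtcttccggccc
These 13 codons correspond to the form of GSK3 beta known from neurons as GSK3 beta 2. The processed transcript Gsk3b-204, of 713 bases, was at 3.003 ± 2.46 (SD, n = 12) and was listed at 0 in 2 mice.

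**Figure D2:**
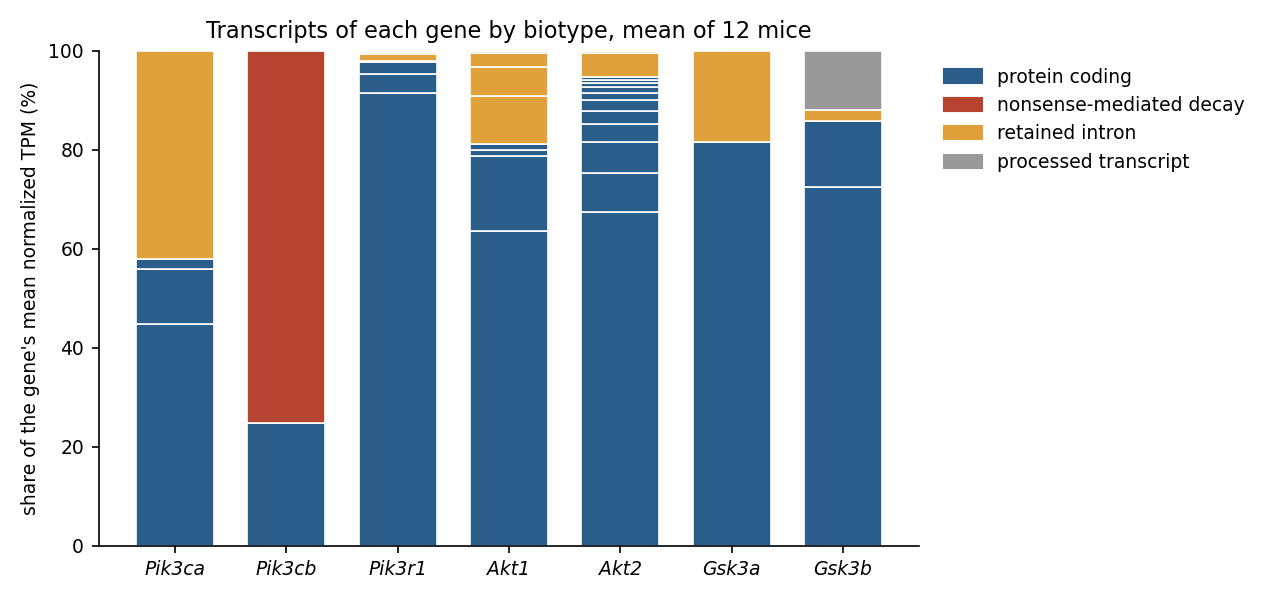
Share of each gene's mean normalized TPM over 12 mice (vertical axis, %) by annotated biotype (color), with white lines between transcripts. Pik3cb is 75.1% nonsense-mediated decay target and Pik3ca 42.1% retained intron, whereas Pik3r1 is almost all coding.

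The first comparison asked whether the deletion of Sprouty2 in epithelium went with other RNA levels of the route. By limma on log2(normalized TPM + 0.5), 0 of the 7 genes differed between genotypes at an adjusted p of 0.05, where 5 of the 15880 genes tested did (0.0315%). At an unadjusted p under 0.05 there was 1 of the 7, against 6.18% of all genes. The members split in direction, with 3 higher and 4 lower in Spry2IEKO mice, and their median log2 difference of -0.07 stood beside 0.01 for all genes.

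Of the PI3K subunits, both catalytic genes had the higher mean in Spry2IEKO mice and the regulatory gene the lower. Pik3ca ran from 33.1 over a median of 42.5 to 44.1 in Spry2IEKO mice and from 29.6 over 33.8 to 41.5 in Spry2FF mice. In 3 of the Spry2IEKO mice it was above all Spry2FF mice, and the groups overlapped. The log2 difference was 0.25 (95% interval 0.04 to 0.47, unadjusted p = 0.023 and adjusted p = 0.753 by limma). Within litter A it was 0.24 and within litter B 0.27. Pik3cb was 5.49 ± 1.097 (SD, n = 6) against 4.70 ± 0.779 (SD, n = 6), a log2 difference of 0.20 (95% interval -0.11 to 0.51, adjusted p = 0.866 by limma). Pik3r1 ran from 23.1 over 31.9 to 36.1 in Spry2IEKO mice and from 30.0 over 35.6 to 44.1 in Spry2FF mice, and these ranges overlapped too. Its log2 difference was -0.19 (95% interval -0.44 to 0.05, adjusted p = 0.839 by limma). The difference of Pik3cb was 0.08 with its coding transcripts alone and 0.13 without Spry2IEKO replicate 5, and that of Pik3r1 was -0.11 without Spry2IEKO replicate 12.

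No difference of Akt or GSK3 RNA between genotypes passed the adjusted threshold, and the genotypes overlapped for each of these genes. Akt1, the more abundant Akt, was 88.9 ± 10.5 (SD, n = 6) with the deletion and 98.1 ± 12.3 (SD, n = 6) without, a log2 difference of -0.14 (95% interval -0.35 to 0.07, adjusted p = 0.856 by limma). Akt2, known for its part in insulin signaling, was 29.6 ± 7.38 (SD, n = 6) against 28.4 ± 2.79 (SD, n = 6), a log2 difference of 0.03 (95% interval -0.27 to 0.33, adjusted p = 0.985 by limma). Gsk3a was 56.9 ± 5.27 (SD, n = 6) and 59.7 ± 1.496 (SD, n = 6), with a log2 difference of -0.07 (95% interval -0.21 to 0.07, adjusted p = 0.894 by limma). Gsk3b, the kinase at the center of the mechanism, ran from 17.6 over 25.3 to 30.3 in Spry2IEKO mice and from 19.6 over 25.6 to 32.1 in Spry2FF mice. Its log2 difference was -0.07 (95% interval -0.43 to 0.29, adjusted p = 0.964 by limma), so on this scale the interval reached from a 0.74-fold to a 1.23-fold level. Its difference was -0.07 within litter A and -0.07 within litter B. These intervals limit each change without showing that the levels were equal. For 0 of the 7 genes was the difference between genotypes found to differ between litters (interaction by limma, beside 0.0126% of all genes). An unadjusted p under 0.05 was reached by 0 of the 7, beside 665 of all 15880 genes. With 3 mice of each genotype in a litter this does not exclude such a difference. The 95% intervals were wide, from -0.41 to 0.08 for Gsk3a and from -0.49 to 0.56 for Pik3cb. None of the 29 member transcripts tested passed an adjusted p of 0.05 for genotype (lowest adjusted p = 0.988 by limma), beside 0.0022% of all transcripts. Before adjustment 0 of the 29 had a p under 0.05, beside 2249 of all 45372 transcripts tested.

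**Figure D3:**
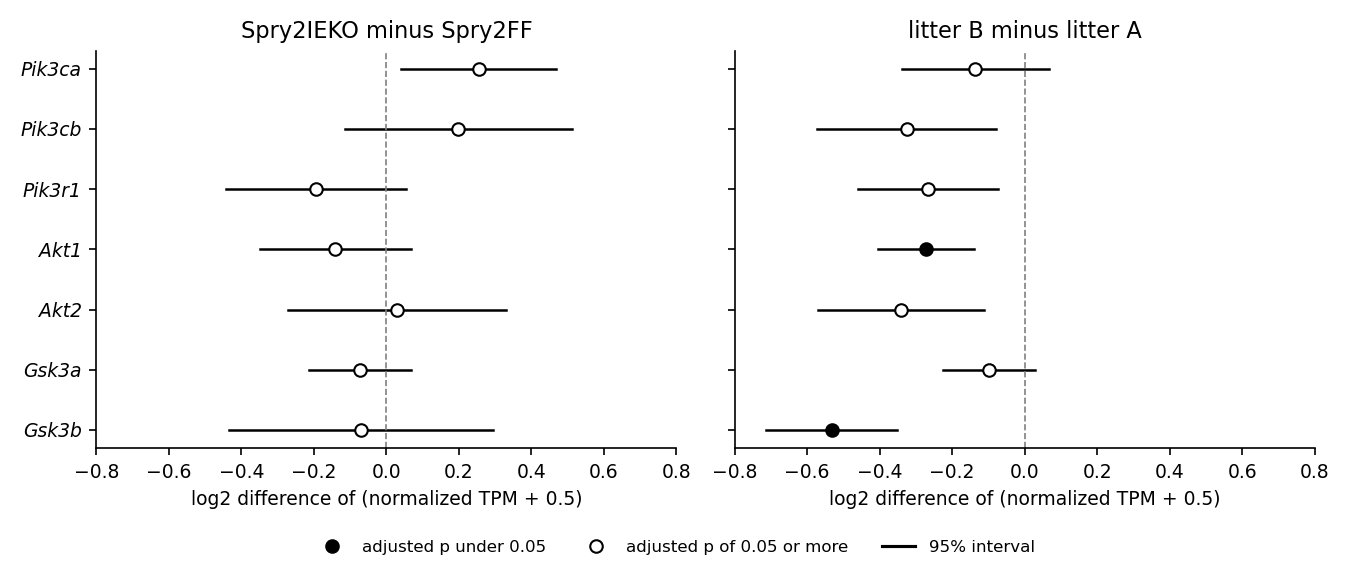
Log2 difference of (normalized TPM + 0.5) for each gene (points) with its 95% interval (lines), between genotypes at the left and between litters at the right; filled points have an adjusted p under 0.05 by limma. No gene is filled for genotype, all 7 lie below 0 for litter, and Gsk3b and Akt1 are filled there.

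Ratios within a mouse do not depend on the scaling between mice, and 4 were compared. The ratio of Pik3r1 to the sum of Pik3ca and Pik3cb, regulatory to catalytic subunit, was lower in Spry2IEKO mice. It ran from 0.472 to 0.762 in them, with a mean of 0.673 ± 0.107 (SD, n = 6), and from 0.759 to 1.05 in Spry2FF mice, with a mean of 0.917 ± 0.134 (SD, n = 6). The ranges met only at their edges, where the highest Spry2IEKO mouse, replicate 11 at 0.762, was just above the lowest Spry2FF mouse, replicate 2 at 0.759. The mean log2 ratio differed by -0.45 (two-sided exact permutation test of the mice, p = 0.00433, adjusted over the 4 ratios p = 0.0173). It was -0.41 in litter A, -0.49 in litter B and -0.55 in females. With coding transcripts alone, which leave out the short Pik3ca-204 and the decay target Pik3cb-203, it was -0.39 (exact permutation test, adjusted p = 0.00866). The level of the ratio depended on this choice. Coding Pik3r1 had a mean of 30.3 in Spry2IEKO mice, against 23.2 for Pik3ca and 1.32 for Pik3cb. For Spry2FF mice these means were 35.1, 20.5 and 1.21. Mean coding Pik3r1 thus exceeded the catalytic sum in each genotype, whereas over all transcripts the mean ratios were 0.673 and 0.917. The summed epithelial markers were lower in the same Spry2IEKO mice, by -0.28 on the log2 scale, and their part in the ratio was not tested. The isoform ratios did not pass. Akt2 to Akt1 was 0.329 ± 0.0466 (SD, n = 6) with the deletion and 0.291 ± 0.0229 (SD, n = 6) without (exact permutation test, adjusted p = 0.143). Gsk3b to Gsk3a was 0.427 ± 0.0712 (SD, n = 6) and 0.429 ± 0.0889 (SD, n = 6), with an exact permutation adjusted p of 0.996. Pik3cb to Pik3ca was 0.135 ± 0.0290 (SD, n = 6) and 0.137 ± 0.0224 (SD, n = 6), also with an adjusted p of 0.996 by exact permutation.

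**Figure D4:**
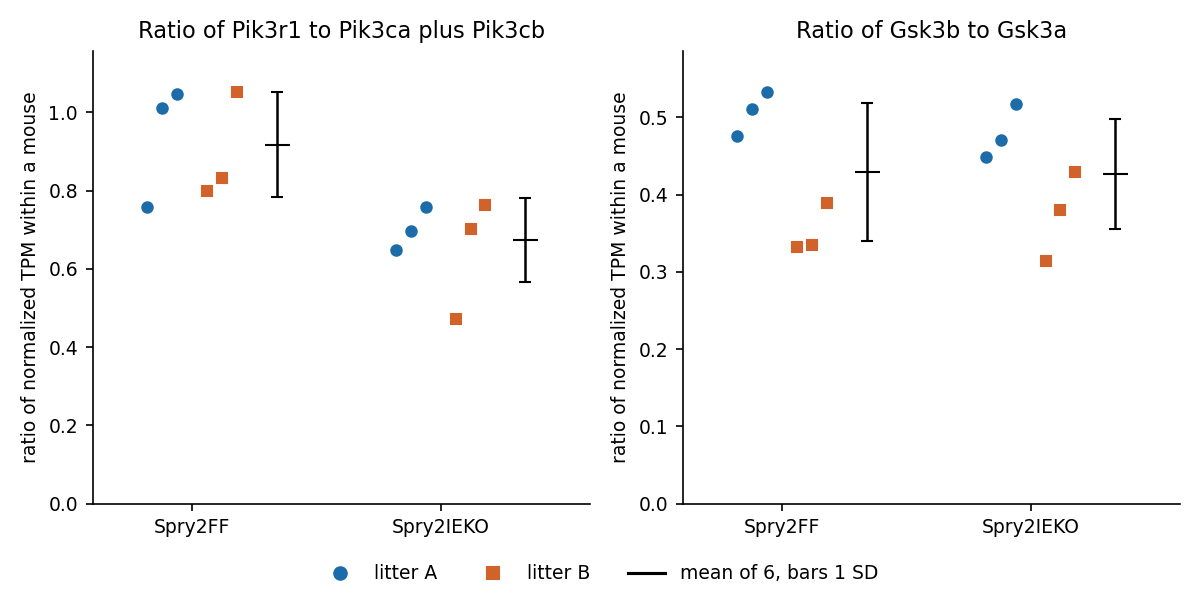
Ratio of normalized TPM within a mouse (vertical axes, from 0), for Pik3r1 to Pik3ca plus Pik3cb at the left and Gsk3b to Gsk3a at the right, by genotype and litter (circles for A, squares for B), with the mean and 1 SD of each genotype. The left ratio separates the genotypes almost fully, and the right one separates the litters, with squares up to 0.430 and circles from 0.448.

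Between the litters, Gsk3b and Akt1 were lower in litter B, and the other 5 genes did not pass the test. All 7 had a negative log2 difference (lower in litter B), as 58.8% of all genes did, and their median was -0.27 beside -0.05 for all genes. In a fit with genotype and litter, 2 of the 7 passed an adjusted p of 0.05 by limma, where 4.38% of all genes did, 3.31% with a negative difference. At an unadjusted p under 0.05 there were 5 of the 7, against 21.9% of all genes. The library names in the labels begin with 1 code in all mice of litter A and another in all of litter B, whose meaning is not given, so litter and what the codes stand for cannot be told apart.

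Gsk3b was the member with the largest litter difference. It was 28.9, 30.1 and 32.1 in the Spry2FF mice and 26.5, 30.3 and 30.1 in the Spry2IEKO mice of litter A. In litter B it was 22.4, 20.6 and 19.6 in the Spry2FF mice and 24.2, 17.6 and 18.2 in the Spry2IEKO mice. All 6 mice of litter B lay below all 6 of litter A, while 3.72% of all genes had litters that did not overlap, 2.94% with this direction. The means were 20.4 ± 2.53 (SD, n = 6) and 29.6 ± 1.87 (SD, n = 6), a log2 difference of -0.53 (95% interval -0.71 to -0.35, adjusted p = 0.0112 by limma). Within a mouse, Gsk3b to Gsk3a was 0.363 ± 0.0436 (SD, n = 6) in litter B and 0.493 ± 0.0323 (SD, n = 6) in litter A (exact permutation test, p = 0.00216, the smallest that 6 against 6 allow, adjusted over 4 ratios p = 0.00866). That comparison of ratios between litters was chosen after the values were seen. With coding transcripts alone the difference of the log2 ratio was -0.26 instead of -0.44, with an adjusted p of 0.0606 by exact permutation.

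The litter differences of the Gsk3b transcripts ranged widely, and none passed the test by itself. The main Gsk3b-201 was 16.8 ± 0.729 (SD, n = 6) in litter B and 19.5 ± 0.607 (SD, n = 6) in litter A, a log2 difference of -0.21 (adjusted p = 0.114 by limma over transcripts). Its ranges, 15.5 to 17.7 and 19.0 to 20.5, did not meet. The processed Gsk3b-204 was 1.12 ± 1.15 (SD, n = 6) against 4.89 ± 1.86 (SD, n = 6), a log2 difference of -2.03 (adjusted p = 0.0711 by limma over transcripts). The insert-bearing Gsk3b-202, shown above, was 1.93 ± 1.73 (SD, n = 6) against 4.75 ± 2.06 (SD, n = 6), a log2 difference of -1.48 (adjusted p = 0.191 by limma over transcripts). Gsk3b-203, which retains an intron, was 0.602 ± 0.142 (SD, n = 6) and 0.530 ± 0.171 (SD, n = 6). Of the 29 member transcripts tested, 10 had an unadjusted p under 0.05 for litter by limma, beside 8322 of all 45372 transcripts tested. The adjusted threshold was passed by 0 of the 29, beside 1.31% of all transcripts.

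**Figure D5:**
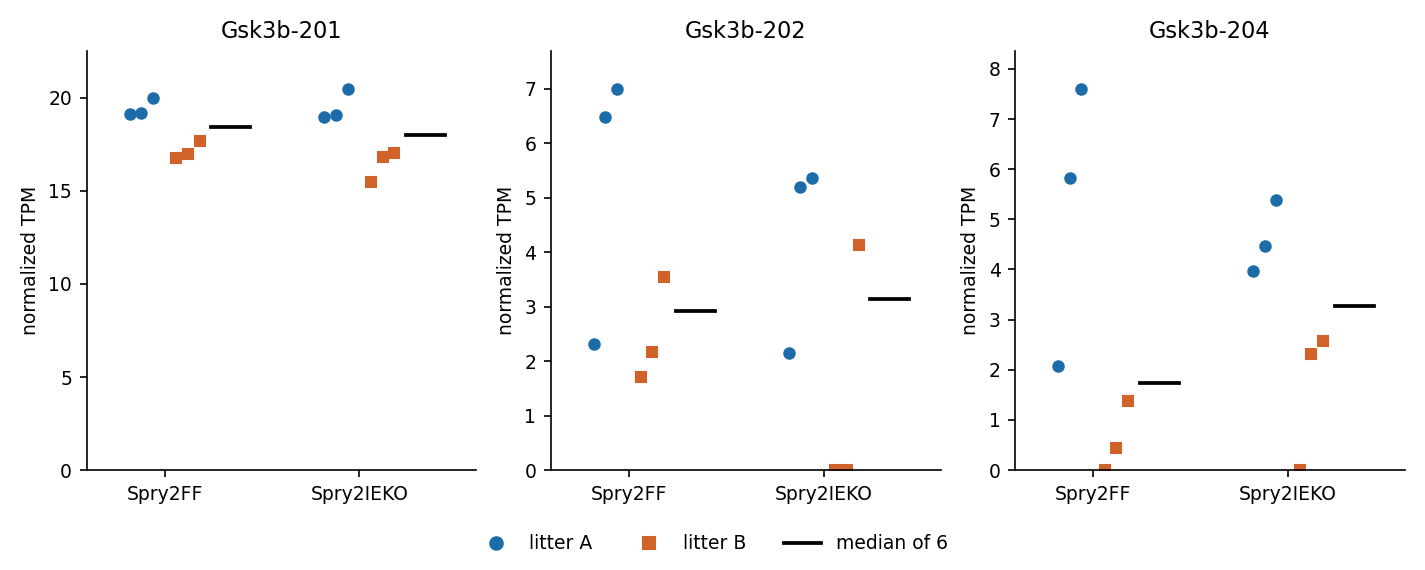
Normalized TPM of Gsk3b-201, Gsk3b-202 and Gsk3b-204 (vertical axes, each from 0) in the 12 mice by genotype and litter (circles for A, squares for B), with the median of each genotype. Gsk3b-201 separates the litters by a small step, 15.5 to 17.7 against 19.0 to 20.5, and the other transcripts vary widely and reach 0.

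Akt1 was 84.6 ± 6.02 (SD, n = 6) in litter B and 102.4 ± 9.22 (SD, n = 6) in litter A, a log2 difference of -0.27 (95% interval -0.40 to -0.14, adjusted p = 0.0326 by limma). In 3 litter B mice it was below all of litter A. Akt2 was 25.5 ± 2.72 (SD, n = 6) in B and 32.5 ± 5.09 (SD, n = 6) in A, a log2 difference of -0.34 (adjusted p = 0.0865 by limma). The PI3K genes had differences of -0.33 for Pik3cb (adjusted p = 0.119 by limma), -0.27 for Pik3r1 (adjusted p = 0.106 by limma) and -0.14 for Pik3ca (adjusted p = 0.418 by limma), and Gsk3a one of -0.10 (adjusted p = 0.350 by limma). The count depended on the scaling and the transcripts. With each mouse scaled to the same total, Akt1, Akt2, Gsk3b and Pik3r1 passed, as did 1456 of all 15880 genes, against 696 in the main fit. The median of all genes was then -0.12. After quantile normalization, where that median was 0.01, only Gsk3b passed, as did 477 of all genes. With the highest transcript of each gene alone, Gsk3b (log2 difference -0.21, adjusted p = 0.0532 by limma) and Akt1 (-0.10, adjusted p = 0.601 by limma) did not pass. Pik3ca did (-0.67, adjusted p = 0.0437 by limma), as did 618 of the 15331 genes tested. The call for Akt1 was lost in 8 of 12 cases when a mouse was left out, namely Spry2FF replicate 2, 3, 7, 9 or 13 or Spry2IEKO replicate 5, 6 or 12 (adjusted p = 0.0613 to 0.0795 by limma). Its log2 difference stayed between -0.31 and -0.25 in all 12 cases. Fibroblast markers were lower in the same litter, by -0.78 on the log2 scale of their sum (two-sided exact permutation p = 0.00216), and so were the summed fat markers, by -1.80 (exact permutation p = 0.0238), with 23.1 to 45.2 in litter B and 27.6 to 781 in litter A. Their part in the litter differences was not tested. Between sexes, 0 of the 7 genes passed in a fit with genotype and litter, beside 0.101% of all genes.

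The other genes of the route were taken from lists written by role. Of 93 such genes, 90 passed the filter on low values, and Trib3, Apc2 and Trim63 did not. For genotype 0 of the 90 passed an adjusted p of 0.05 by limma, beside 0.0315% of all genes. The log2 difference was positive (higher in Spry2IEKO mice) for 50 and negative for 40, beside 8280 and 7600 of all genes. An unadjusted p under 0.05 was reached by 4 of the 90, Pik3r2, Pik3c2b, Phlpp2 and Bnip3, a smaller share than the 6.18% of all genes, so the values given for them are descriptions. Next to Pik3ca and Pik3cb, the catalytic subunits of immune cells had the higher mean too. Pik3cg was 4.10 ± 2.44 (SD, n = 6) in Spry2IEKO mice against 2.56 ± 1.28 (SD, n = 6), and Pik3cd 2.90 ± 2.36 (SD, n = 6) against 1.83 ± 1.39 (SD, n = 6), with adjusted p of 0.842 and 0.894 by limma. Both were highest in Spry2IEKO replicate 4, at 8.69 and 7.37. The other Spry2IEKO mice reached 4.35 and 2.99, and the Spry2FF mice 4.36 and 3.99. In Spry2IEKO replicate 4 the summed B cell markers were also highest, at 319 against 1.44 to 131 in the other 11 mice. Their part in the values of these subunits was not tested.

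Of the 5 regulatory subunits, 4 including Pik3r1 had the lower mean in Spry2IEKO mice. Pik3r2, which encodes p85 beta, was 17.0 ± 2.77 (SD, n = 6) against 21.2 ± 1.05 (SD, n = 6), a log2 difference of -0.32 (95% interval -0.52 to -0.11, unadjusted p = 0.00556 and adjusted p = 0.656 by limma). Pik3r5, a partner of p110 gamma, was 1.68 ± 0.786 (SD, n = 6) against 1.23 ± 0.716 (SD, n = 6). Among class II and III genes, Pik3c2b had a log2 difference of -0.17 (adjusted p = 0.76 by limma) and Pik3c2g one of 0.69 (adjusted p = 0.829 by limma). Pik3c2g was near the filter on low values, at 1.04 ± 1.02 (SD, n = 6) in Spry2IEKO mice against 0.322 ± 0.115 (SD, n = 6). Inpp4b, a phosphatase of phosphoinositides, had a log2 difference of 0.27. Of the adaptors and inputs, Irs2 had a difference of 0.40 and Gab1 one of -0.11, and 4 of 10 were higher.

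Around Akt, 1 of the 7 genes for its activating kinases had the higher mean in Spry2IEKO mice. Pdpk1, which encodes PDK1, had a log2 difference of -0.07 and Prr5l, a subunit associated with mTORC2, one of -0.42 (adjusted p = 0.932 and 0.859 by limma). Prr5l was low, at 0.661 ± 0.525 (SD, n = 6) in Spry2IEKO mice against 0.956 ± 0.310 (SD, n = 6). Of 10 Akt phosphatases and inhibitors, 4 had the higher and 6 the lower mean in Spry2IEKO mice. Phlpp1 and Phlpp2 encode phosphatases of the Akt serine shown above. Phlpp2 was 28.9 ± 4.38 (SD, n = 6) against 35.6 ± 4.39 (SD, n = 6), a log2 difference of -0.30 (95% interval -0.54 to -0.07, unadjusted p = 0.0157 and adjusted p = 0.7 by limma). Phlpp1 was 10.6 ± 1.32 (SD, n = 6) against 12.3 ± 1.47 (SD, n = 6), a log2 difference of -0.21 (adjusted p = 0.826 by limma). Of the other Akt substrates 7 of 11 had the higher mean, with Mdm2 at 0.19 and Cdkn1b at 0.17 on the log2 scale.

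Below GSK3, the scaffold Axin1 of the beta-catenin destruction complex had a log2 difference of -0.15 and Apc one of -0.15 (adjusted p = 0.833 and 0.912 by limma). The GSK3 substrates Myc and Jun had differences of 0.17 and -0.18, and 5 of 10 substrates had a positive log2 difference. Of the targets of FOXO factors, which Akt keeps out of the nucleus, 0 of 19 passed the threshold. The log2 difference was positive (higher in Spry2IEKO mice) for 16 of the 19, beside 8280 of all 15880 genes. Its median was 0.11 beside 0.01 for all genes. Bnip3, a mitophagy receptor, was 69.2 ± 11.9 (SD, n = 6) against 53.4 ± 7.39 (SD, n = 6), a log2 difference of 0.36 (95% interval 0.10 to 0.63, unadjusted p = 0.0112 and adjusted p = 0.693 by limma). Klf4, a factor of differentiated colon epithelium, had a difference of -0.20 (adjusted p = 0.826 by limma). Il33, the cytokine at the end of the mechanism, was 15.2 ± 1.13 (SD, n = 6) with the deletion against 11.6 ± 2.38 (SD, n = 6). Its log2 difference was 0.40 (95% interval 0.14 to 0.66, unadjusted p = 0.00543 and adjusted p = 0.653 by limma). By qPCR the study reported more Il33 RNA in colonic homogenates of Spry2IEKO mice. For litter, 1 of the 90 genes passed, a smaller share than the 4.38% of all genes, and this was Apc, at 17.96 in litter B against 25.0 in litter A (log2 difference -0.46, adjusted p = 0.0356 by limma). In all, 67 of the 90 had a negative log2 difference for litter (lower in litter B), as 58.8% of all genes did.

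Across the 12 mice, levels of several members went up and down together. The mice share litters and genotypes, so the coefficients are descriptions. Pearson's r of log2(normalized TPM + 0.5) was 0.83 between Akt1 and Gsk3b, 0.82 between Akt2 and Gsk3b and 0.82 between Akt1 and Pik3r1. After the litter means were taken out these were 0.48, 0.58 and 0.68. Coefficients of the catalytic subunits with the other 5 genes were below these 3 unadjusted values. Those of Pik3ca ran from -0.18 with Pik3r1 to 0.28 with Gsk3b, those of Pik3cb from -0.05 with Gsk3a to 0.59 with Akt2, and the 2 subunits had an r of 0.45 with each other. With the litter means taken out, those of Pik3ca were all negative, from -0.52 with Pik3r1 to -0.05 with Gsk3b. Those of Pik3cb were then negative with all but Akt2, from -0.61 with Gsk3a to 0.20 with Akt2. Between the 2 subunits r was then 0.32. Of the 14 relations between a member and the summed epithelial or smooth muscle markers, 0 passed an adjusted p of 0.05 (permutation test, Pearson's r or Spearman's rho). The strongest was Pik3cb with epithelium, at r = -0.60 and rho = -0.43 (permutation p = 0.0392 and 0.163, adjusted p = 0.549 and 0.66), and r was -0.56 without the 2 mice farthest from the median of the markers, -0.63 in litter A, -0.22 in litter B, -0.12 in Spry2FF and -0.76 in Spry2IEKO mice.

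Among 10709 genes with a mean of at least 5, the genes most like each member over the 12 mice were named by Pearson's r. For Akt1 these were Golga3 (r = 0.98) and Atrn (r = 0.97), and for Gsk3b Rad54l2 (r = 0.96) and Nipal3 (r = 0.95). For Akt2 they were Nrp2 (r = 0.96) and Amotl1 (r = 0.95), and for Gsk3a Ucp2 and Os9 (both r = 0.94). Pik3r1 was closest to Szrd1 and Glce (both r = 0.92), and Pik3cb to Ppp2r5e and Rock1 (both r = 0.89). Pik3ca had the weakest neighbours, Hps4 (r = 0.84) and Cd200 (r = 0.83).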

How the data were processed

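Values of 12 libraries from distal colon were read from 1 deposited table. The authors pseudoaligned the reads with kallisto and obtained TPM, and what they deposited per transcript is a signal, TPM rescaled between mice. The submitters' processing notes name CASAVA, kallisto, sleuth and mm10. The plan assumed TPM, and the same tests were kept. The table's columns from the authors' own test (p-values, q-values, test statistics and variances) were not used. The labels describe paired-end reads, whereas the methods describe single-end reads.

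Of 113974 entries, 781 repeated a transcript and were dropped. Transcripts were summed per gene symbol, after 28 genes whose names had become dates were renamed by identifier. Those averaging 0.5 or more over the mice entered limma 3.58.1 in R 4.3.3 (lmFit, eBayes with trend, two-sided) as log2(normalized TPM + 0.5), which understates changes of low genes, with Benjamini-Hochberg adjustment over all genes tested. Genotype was fitted without a covariate, litter with genotype. Ratios were compared by exact permutation of mice, and marker relations by 100000 permutations. Litter, genotype and sex came from the labels. Transcript types, positions and coding sequence came from GENCODE M21 (GRCm38). The limma and permutation steps were tested on simulated data. Other steps ran in Python 3.11.15 with SciPy 1.17.1, NumPy 2.4.6, pandas 2.3.3 and matplotlib 3.10.9.

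Named were the 7 members, their transcripts, Spry2, Il33, in each list of pathway genes the 2 other genes with the lowest genotype p, and the 2 genes most like each member. Of the genes this rule names, 2 are not reported here. Members and lists were chosen with earlier results of these data known. No count model was fitted to these scaled values. Alternatives were the pseudocount, the filter, scaling, covariates, subsets of mice, the transcript used and leaving out each mouse. The restriction to coding transcripts, the ratios within litters and in females, the ratios between litters, and the litter fit over transcripts and the sex fit were added after values had been seen.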

Additional observations from a re-analysis of the deposited data

Results flagged for a closer look

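In 4 of 100 groups of 6 mice tested, 1 mouse stood apart by Dixon's criterion, where chance gives about 1 in 20. Pik3ca in Spry2IEKO replicate 11 was 33.06 normalized TPM, below 40.52 to 44.14 in the other 5 mice, and without that mouse the genotype difference of Pik3ca was 0.31 instead of 0.25 on the log2 scale. The ratio of Akt2 to Akt1 in Spry2FF replicate 9 was 0.3377, above 0.2787 to 0.2839 in the others. In Spry2IEKO replicate 4, Pik3cd was 7.369 (0.7946 to 2.993 in the others) and Pik3cg 8.692 (1.92 to 4.346 in the others), and its summed B cell markers were 319, the highest of the 12 mice.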

How the results depend on the processing

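For genotype, 0 of the 7 genes and 0 of the pathway genes passed under each of 15 alternative settings and with each of the 12 mice left out in turn, and the interaction (6 settings) and the member transcripts (4 settings) also gave 0. Directions that were not called turned in some of these. Akt2 was -0.0712 in litter B alone and -0.0816 to 0.121 with a mouse left out, below 0 in 4 of 12 cases. Gsk3a was 0.0112 in litter A alone. Gsk3b was 0.0232 in females and -0.14 to 0.0161 with a mouse left out, above 0 in 2 of 12 cases, all on the log2 scale. Left-out mice moved the log2 ratio of Gsk3b to Gsk3a between -0.0674 and 0.0853 and that of Pik3cb to Pik3ca between -0.121 and 0.0284, and coding transcripts alone put the former at -0.0488. The ratio of Pik3r1 to Pik3ca plus Pik3cb stayed called in all settings with a test, from -0.58 with the highest transcripts to -0.39 with coding transcripts, and from -0.50 to -0.35 with a mouse left out (exact permutation tests, adjusted p from 0.00866 to 0.0476). Akt2 to Akt1 passed with the highest transcripts, at 0.241 (exact permutation test, adjusted p = 0.039), and without Spry2IEKO replicate 12, at 0.215 (adjusted p = 0.0476 by exact permutation), and left-out mice gave 0.101 to 0.215. For litter, 2 members passed, against 4 with each mouse scaled to the same total, 1 after quantile normalization, 1 with the highest transcript and 1 to 2 with a mouse left out, Gsk3b being kept in each of the last. The number of all genes that passed moved too. It was 696 of 15880, against 1456 and 477 with these scalings, 618 of 15331 with the highest transcript and 180 to 957 with a mouse left out. The cause was not tested. No paired analysis was possible because the genotypes share no replicate numbers, and litter as a covariate moved no genotype call of a member. The methods give only an approximate depth for all libraries alike, the values do not carry that of each library, and no counting error is given.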
